A study of Mus musculus with 4 samples.

Results

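Enteroendocrine cells are rare epithelial cells of the gut that store peptide hormones or serotonin in granules and release them when they sense food. The cells described here were chosen by their counts alone. A cell barcode was a member if it held at least 10 unique molecular identifiers (UMIs, 1 for each captured RNA molecule) of the granule genes Chga and Chgb together and fewer than 3 of Tph1, the rate-limiting enzyme of serotonin synthesis in the gut. It also had to hold under 0.2% of its UMIs in the mucin gene Muc2 and no UMI of the T cell genes Cd3d, Cd3e and Cd3g. Of 25788 barcodes with at least 500 UMIs, at least 250 genes and at most 25% mitochondrial UMIs, 164 met this rule, or 0.636% (95% Clopper-Pearson interval 0.543 to 0.741). They are called Tph1-low chromogranin cells below, because not all of them held a peptide hormone.

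The study asked what 3-indolepropionic acid (IPA), a tryptophan metabolite of gut bacteria, does in the intestine. Male C57BL/6J mice received a high-fat diet (HFD) and l-NAME, which blocks the making of nitric oxide, from 8 weeks of age for 7 weeks, and were 15 weeks old at dissection. The HFD and l-NAME were shared by all mice, the 2 control samples (con) received no IPA, and the diet of the other 2 samples (IPA) held 562.5 mg IPA per kg. Each sample pooled 2 mice, and live (DAPI-) cells of the epithelial layer of jejunum and ileum were sorted and counted by 3′ droplet sequencing. The 4 libraries carry numbers 1 to 4 on their barcodes, and neither the labels nor the files say which sample each number stands for. No diet was therefore compared, no p-value was computed, and all 95% intervals cover counting error only.

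Types of enteroendocrine cell are told apart by their main product. Gip encodes the incretin of K cells, Gcg the precursor of glucagon-like peptides of L cells, Cck the satiety hormone of I cells, Nts neurotensin of N cells, Sst somatostatin of D cells, and Ghrl ghrelin of X cells. Secretin (Sct) and peptide YY (Pyy) are made together with several of these. Enterochromaffin cells, which make serotonin and express Tph1, belong to the same lineage and served as the comparison. That lineage begins with a brief pulse of the transcription factor Neurog3, followed by Neurod1, Insm1 and factors of single cell types.

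The promoters of the 5 hormones that led at least 12 cells each are shown because these genes set the groups described below. Each run covers 250 bases before and 50 bases after the RefSeq start (GRCm38.p6), read 5′ to 3′ on the gene's strand. They lie at chr11:96024295-96024594 (+) for Gip, chr16:23890795-23891094 (-) for Sst, chr10:102490369-102490668 (-) for Nts, chr9:121495645-121495944 (-) for Cck and chr2:62483604-62483903 (-) for Gcg. Capitals mark 3 motifs, each searched on both strands. CANNTG is the E-box bound by basic helix-loop-helix factors such as Neurod1. TGACG is the core of the cyclic AMP response element. TATAA is the core of the TATA box.
Gip: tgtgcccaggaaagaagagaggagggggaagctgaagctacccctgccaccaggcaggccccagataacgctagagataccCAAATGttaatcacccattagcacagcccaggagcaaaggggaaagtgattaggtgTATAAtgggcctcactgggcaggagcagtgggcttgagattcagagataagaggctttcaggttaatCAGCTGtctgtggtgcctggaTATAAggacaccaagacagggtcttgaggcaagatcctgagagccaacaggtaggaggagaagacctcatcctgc
Sst: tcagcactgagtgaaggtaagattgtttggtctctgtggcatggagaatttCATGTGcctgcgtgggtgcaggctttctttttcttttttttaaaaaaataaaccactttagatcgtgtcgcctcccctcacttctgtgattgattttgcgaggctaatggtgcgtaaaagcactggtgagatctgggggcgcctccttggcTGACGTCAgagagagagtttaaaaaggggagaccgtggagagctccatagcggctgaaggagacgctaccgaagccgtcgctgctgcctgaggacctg
Nts: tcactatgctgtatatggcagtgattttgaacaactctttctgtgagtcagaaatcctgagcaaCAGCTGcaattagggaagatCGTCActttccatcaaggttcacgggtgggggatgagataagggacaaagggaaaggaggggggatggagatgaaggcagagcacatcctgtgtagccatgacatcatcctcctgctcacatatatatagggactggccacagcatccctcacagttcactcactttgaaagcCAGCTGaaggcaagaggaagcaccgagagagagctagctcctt
Cck: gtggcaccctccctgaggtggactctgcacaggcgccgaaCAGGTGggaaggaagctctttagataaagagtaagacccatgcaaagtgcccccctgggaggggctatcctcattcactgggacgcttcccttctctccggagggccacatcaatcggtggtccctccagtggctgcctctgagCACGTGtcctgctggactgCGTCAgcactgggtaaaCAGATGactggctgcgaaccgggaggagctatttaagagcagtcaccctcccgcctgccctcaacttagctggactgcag
Gcg: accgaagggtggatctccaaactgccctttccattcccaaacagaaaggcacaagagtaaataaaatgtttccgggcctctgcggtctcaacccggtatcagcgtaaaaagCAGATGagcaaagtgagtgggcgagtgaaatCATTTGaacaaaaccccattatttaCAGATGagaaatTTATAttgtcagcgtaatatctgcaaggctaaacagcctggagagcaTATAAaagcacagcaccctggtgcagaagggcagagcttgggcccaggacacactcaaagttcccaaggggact
The Sst promoter holds TGACGTCA, in which 2 copies of the TGACG core overlap on opposite strands. Cck and Nts hold 1 copy of the core each, and Gip and Gcg hold none. E-boxes number 2 in Gip, 1 in Sst, 2 in Nts, 3 in Cck and 3 in Gcg, and TATAA occurs at 2 places in Gip and in Gcg. Of 32851 mouse promoters of this length, 72.3% hold an E-box, 20.8% the TGACG core and 24.9% TATAA, so such matches are common and none is a shown binding site.

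Libraries 1 to 4 held 37, 32, 64 and 31 Tph1-low chromogranin cells, or 0.599%, 0.449%, 1.01% and 0.501% of their passed barcodes. Enterochromaffin cells, chosen by the same rule but with at least 3 Tph1 UMIs, numbered 22, 16, 43 and 15. The Tph1-low cells made up 62.7%, 66.7%, 59.8% and 67.4% of both classes together, a range narrower than the interval of any library (library 2, 51.6 to 79.6). Their median depth was 18304, 19982.5, 16925 and 11969 UMIs in libraries 1 to 4, compared with 27272 UMIs in the 18930 chromogranin-free epithelial cells with Epcam (the epithelial background below). No member shared its barcode sequence with a member of another library, although 75 sequences of passed barcodes occurred in more than 1 library. Libraries 1 and 3 also held 316 and 1210 T cell barcodes, and libraries 2 and 4 held 4 and 6. Library 2 stood apart from the others in many of the values below, and values of hormone-led cells only are given beside most of these.

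Most of the Tph1-low chromogranin cells were peptide hormone cells by their transcripts, but not all. A leading hormone was defined as the gene with the most UMIs among Gip, Cck, Gcg, Pyy, Nts, Sst, Ghrl, Insl5 and Tac1, with at least 10 UMIs. It was present in 126 of 164 cells, or 76.8% (69.6 to 83.1), and these are called hormone-led cells. By library these were 31 of 37, 19 of 32, 52 of 64 and 24 of 31 cells, or 83.8%, 59.4%, 81.3% and 77.4%. Library 2 had the lowest share, and its interval of 40.6 to 76.3% overlapped those of the other 3.

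The 38 cells with no leading hormone fell into 3 sets. The first was 16 cells with no Chgb and no Neurog3, found as 5, 9, 1 and 1 cells in libraries 1 to 4. They met the rule through 10 to 15 Chga UMIs, and 0 of 16 held Neurod1, Insm1 or Pcsk1n. Their median depth was 32317 UMIs, against 16832.5 over all members, and the limit of 10 UMIs was the same at any depth. Their median of Reg3b, an antimicrobial lectin of enterocytes, was 1968.5 UMIs (5 to 4579). Enterocyte markers took a median 8.19% of their UMIs (0.426 to 24.5%), against 0.583% over all members. These 16 cells met the rule but were not peptide hormone cells by these transcripts, and library 2 held most of them.

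The second set was 6 cells with at least 5 UMIs of Neurog3, the factor that starts the endocrine lineage. They held 8 to 56 Neurog3 UMIs, and all 6 held Neurod1 and Insm1. They came from library 3 (3 cells) and library 4 (3 cells). A seventh Neurog3-high cell, in library 3, held 19 Neurog3 UMIs and 129 UMIs of Ghrl, so it counted as Ghrl-led. The third set was 16 cells with neither feature. This set was mixed. In it 9 cells held the cycling marker Mki67 and 6 held at least 10 UMIs of the stem cell marker Olfm4. Neurod1 was found in 4 of the 16, Insm1 in 3 and Pcsk1n in 4. Enterocyte markers took 0.359 to 14.3% of their UMIs, and Reg3b ran from 0 to 591 UMIs.

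Chga was also measured over epithelial cells, with members included. Among epithelial cells without Chgb and Neurod1, Chga was at 8.32, 15.2, 20.6 and 22.7 CPM (UMIs of the gene scaled to a common total of UMIs of the class) in libraries 1 to 4 where a cell held at least 100 Reg3b UMIs. Where a cell held fewer, it was at 2.23, 4.16, 3.92 and 3.62 CPM. The Reg3b-high cells were higher in each library, and they were also deeper, with medians of 34904, 29325, 34361 and 26878 UMIs against 14576, 20596, 29130 and 26066 UMIs. Members were not left out of these sets. Cells with at least 10 Chga UMIs numbered 5, 9, 1 and 0 among Reg3b-high cells and 0, 0, 0 and 1 among the others. Any Chga UMI was found in 12.4%, 20.0%, 34.3% and 29.9% of Reg3b-high cells, against 3.45%, 5.79%, 7.07% and 5.50% of the others. Close to the limit of the rule, the 23 members with 10 to 12 Chga and Chgb UMIs included 6 hormone-led cells and 13 without Chgb. Just outside it, 86 barcodes with 7 to 9 UMIs included 5 with a leading hormone and 64 without Chgb. On the other limit, 4 of 10 members with 1 or 2 Tph1 UMIs had a leading hormone, as did 3 of 5 barcodes with 3 to 5 Tph1 UMIs.

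**Figure D1:**
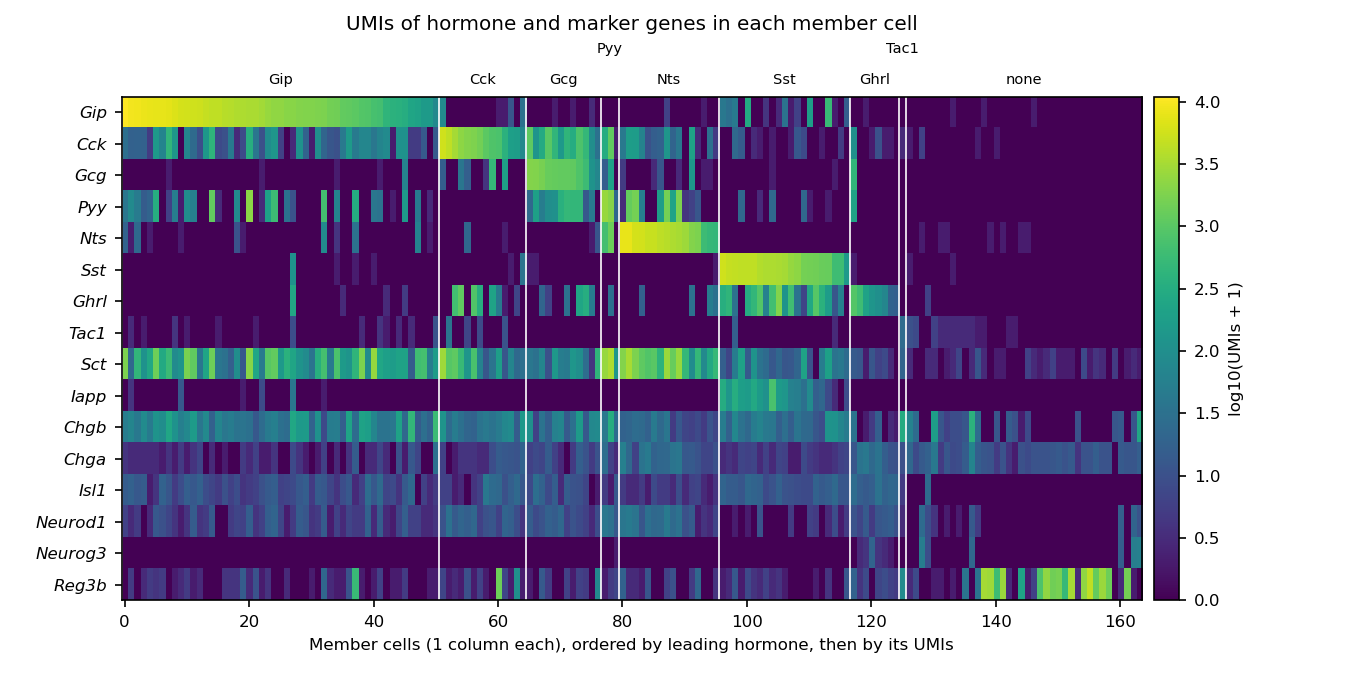
Each column is 1 of the 164 Tph1-low chromogranin cells and each row a gene; colour is log10 of UMIs plus 1, and cells are ordered by leading hormone and then by its UMIs. The hormone-led groups form blocks along the diagonal because cells and hormone rows are placed in the same order. Reg3b is brightest in the cells without a leading hormone, at the right.

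Gip led the largest number of cells. It led 51 cells (14, 3, 24 and 10 in libraries 1 to 4), or 37.8%, 9.38%, 37.5% and 32.3% of each library's members. Library 2 was lowest, with an interval that began at 1.98%. It overlapped the intervals of libraries 1 (22.5 to 55.2%) and 4 (16.7 to 51.4%) and ended below that of library 3 (25.7 to 50.5%). Counted over hormone-led cells only, the Gip share was 45.2%, 15.8%, 46.2% and 41.7%, again lowest in library 2, whose value rests on 3 of 19 cells.

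Somatostatin and the other hormones led fewer cells. Sst led 21 cells (6, 2, 10 and 3), Nts 16 (2, 3, 7 and 4), Cck 14 (2, 4, 5 and 3) and Gcg 12 (2, 3, 5 and 2). Ghrl led 8 cells (3, 3, 1 and 1), Pyy 3 and Tac1, the substance P precursor, 1. Insl5, a hormone known from the colon, led 0 cells and had at most 2 UMIs in any of them. The intervals of the 4 libraries overlapped for each of these hormones.

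**Figure D2:**
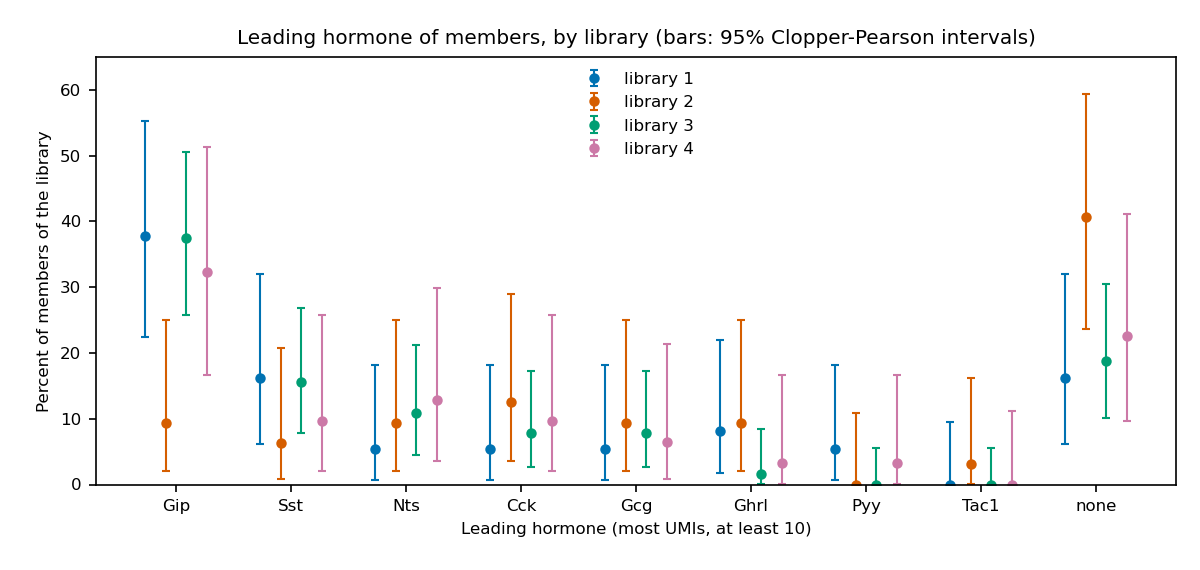
Percent of each library's Tph1-low chromogranin cells led by each hormone, with 95% Clopper-Pearson intervals as bars. The Gip share is 9.38% in library 2 and 32.3 to 37.8% in the other libraries, and the share with no leading hormone is 40.6% in library 2.

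The share of a cell's RNA taken by its leading hormone varied widely. In Gip-led cells Gip took a median 19.3% of all UMIs and up to 49.6%. Sst took a median 24.9% and up to 33.5% of its cells, and Nts a median 19.1% and up to 32.6%. Gcg and Cck took less, with medians of 7.54% and 6.04%, and Ghrl took a median 0.914% in Ghrl-led cells. The lowest share in a single cell was 0.723% for Gip, 0.519% for Sst and 10.55% for Nts. It was 0.707% for Gcg, 0.557% for Cck and 0.0215% for Ghrl. The median for Gip-led cells was 26.6%, 30.2%, 21.4% and 14.2% in libraries 1 to 4, so the 3 Gip-led cells of library 2 were not low.

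Levels summed over all members differed between libraries for each hormone. Gip (chr11:96024545-96030831, +) was at 70944, 11758, 62591 and 47311 CPM in libraries 1 to 4, with counting intervals such as 11511 to 12010 CPM for library 2 and 46702 to 47927 CPM for library 4. Library 2 was low, and stayed low in hormone-led cells at 23571 CPM, against 100514, 86865 and 56496 CPM in libraries 1, 3 and 4. Sst (chr16:23889573-23890958, -) was at 30767, 8097, 17146 and 12511 CPM. Library 1 was highest and library 2 lowest, and in hormone-led cells the lowest was library 4 (43592, 16232, 23793 and 14941 CPM).

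Nts had another order than Gip. Nts (chr10:102481756-102490486, -) was at 8079, 20978, 21207 and 28499 CPM, lowest in library 1. In hormone-led cells it was at 11447, 42047, 29426 and 34034 CPM, still lowest in library 1 and highest in library 2. Cck (chr9:121489824-121495694, -) was at 11184, 8486, 9357 and 16845 CPM and Gcg (chr2:62474530-62483650, -) at 4584, 3101, 5284 and 3957 CPM. These 2 hormones spread least among the libraries, by less than 2-fold in each case.

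Secretin, peptide YY and ghrelin were again lowest in library 2. Sct was at 24106, 6287, 16997 and 25964 CPM in libraries 1 to 4. Pyy was at 9698, 1327, 5361 and 9286 CPM, and Ghrl at 7500, 1760, 3629 and 4501 CPM. In hormone-led cells library 2 remained lowest for all 3, at 12556 CPM of Sct, 2661 CPM of Pyy and 3528 CPM of Ghrl. Free RNA in droplets can add UMIs of such abundant transcripts to any cell. In the epithelial background the highest library value was 58.1 CPM for Gip and 34.0 CPM for Sct, and under 10 CPM for each of the other 6 hormones. All these sums rest on few cells. The 5 richest cells held 25.2% of all Sct UMIs, 26.6% of Gip, 40.7% of Sst, 41.2% of Ghrl, 49.4% of Cck, 50.4% of Pyy, 52.1% of Nts and 54.2% of Gcg.

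**Figure D3:**
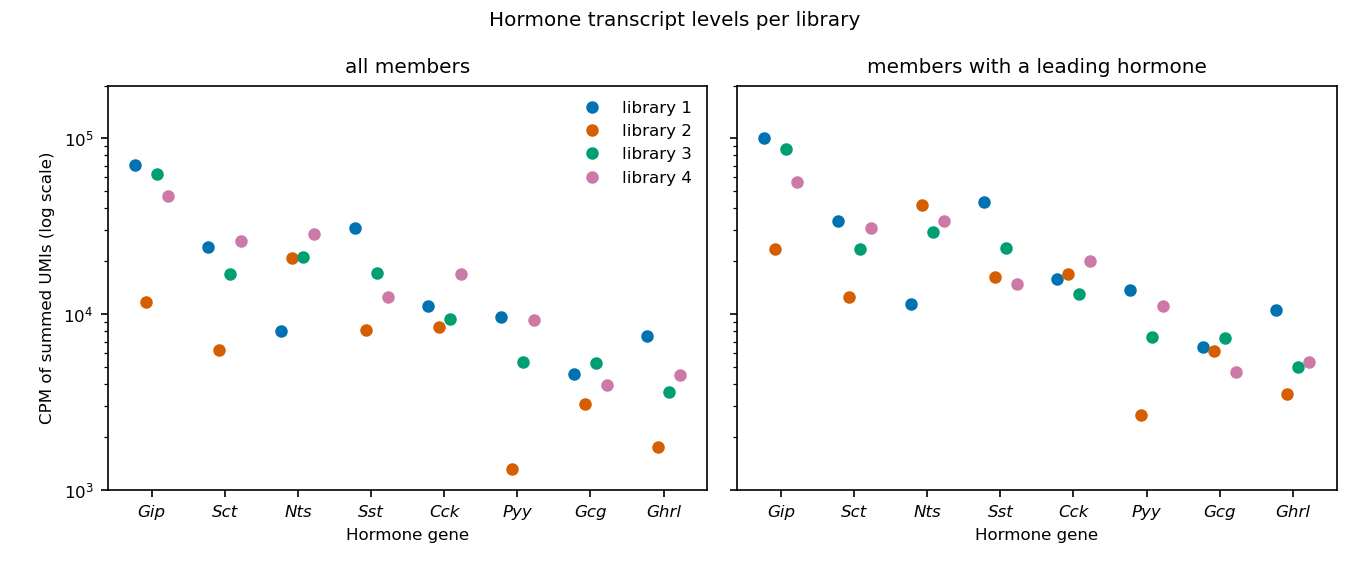
CPM of 8 hormone genes on a log axis, summed per library over all Tph1-low chromogranin cells (left) and over hormone-led cells (right), 1 point per library. Library 2 is the lowest point for Gip, Sct, Pyy and Ghrl in both panels, and library 1 for Nts.

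Most cells held more than 1 hormone at a level of at least 10 UMIs. Not counting Sct, 25 cells held 1 of the 9 hormones, 40 held 2, 43 held 3, 16 held 4 and 2 held 5. Sct reached 10 UMIs in 118 of 164 cells, Cck in 77, Gip in 62, Pyy in 49, Ghrl in 43, Nts in 26, and Gcg and Sst in 23 each. With each cell thinned to 5000 UMIs, which left out 11 shallower cells, the numbers were 88 for Sct, 57 for Cck, 56 for Gip, 38 for Pyy, 33 for Ghrl, 17 for Nts, 19 for Gcg and 23 for Sst, of 153 cells. In the epithelial background 0.201% of cells reached 10 UMIs of Sct, the highest share of these genes, and 0.042% reached 10 of Gip.

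Certain pairs of hormones shared cells throughout. All 23 cells with Gcg also held Cck, in all 4 libraries, and in 16 of the 23 Pyy was present too. All 26 cells with Nts and 61 of 62 cells with Gip held Sct, but so did 74 of 96 enterochromaffin cells. Of the 62 Gip cells 38 held Cck and 23 held Pyy, but 2 held Gcg. After thinning, 24 of 56 Gip cells held Cck, 18 held Pyy and 47 held Sct, and 17 of 17 Nts cells held Sct. Of 49 Pyy cells 39 held Cck, yet the 14 Cck-led cells held no Pyy UMI at all, in a sum that would have shown 8.96 CPM at 3 counts.

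Somatostatin cells had partly other partners. Of 23 cells with Sst, 19 held Ghrl and 18 held Iapp, the amylin precursor, while 21 held Sct and 10 held Gip. In turn 18 of the 19 Iapp cells held Sst. No cell held both Sst and Gcg, or both Sst and Nts, at 10 UMIs. After thinning, Sst cells with Iapp were 16 of 23, those with Ghrl 17 of 23 and Gcg cells with Cck 19 of 19. Sst cells with Sct were then 11 of 23 and those with Gip 8 of 23. Scrublet, a doublet caller, marked 4, 1, 157 and 1 of all passed barcodes, and under 0.5% in 3 of the libraries, where it did not work as a filter. Removing the highest 6% of scores in each library would take away 4 of the 164 members. Doublets were kept, and their part in these pairs was not tested.

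The hormone-led groups differed in their transcription factors. The Sst-led cells held Hhex, the homeobox factor required for somatostatin cells of the pancreas, at 689 CPM and in 21 of 21 cells. Hhex was at 15.7 CPM in Gip-led and 23.9 CPM in Cck-led cells and had 0 UMIs in Gcg-led, Nts-led and Ghrl-led cells. Pdx1, a factor of the duodenum and pancreas, was also highest in Sst-led cells, at 139 CPM.

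Neurod1, a basic helix-loop-helix factor of the lineage, ran from 136 CPM in Sst-led cells, where 10 of 21 cells held it, to 1142 CPM in Nts-led cells, where 16 of 16 did. Isl1, a LIM homeobox factor, went the other way, with 960 CPM in Sst-led and 192 CPM in Nts-led cells. Etv1, an ETS factor, was at 882 CPM in Gcg-led cells, 328 in Cck-led, 263 in Nts-led and 102 in Gip-led cells. Onecut3 was at 176 CPM in Cck-led cells and 91.0 CPM in Nts-led cells, and had 0 UMIs in Sst-led and Ghrl-led cells. Rfx6, a factor known to act in endocrine differentiation, was at 214 CPM in Gip-led cells and 40.4 to 63.4 CPM in the other 5 groups.

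Ghrl-led cells were not the cells with the highest Ghrl level. Ghrl was at 26519 CPM in Sst-led, 11782.5 CPM in Ghrl-led and 9801 CPM in Cck-led cells. The 8 Ghrl-led cells held genes known from endocrine progenitors. Sox4, which is high in endocrine progenitors, was at 1018 CPM in them, 529 CPM in Sst-led cells and 103 CPM in Gip-led cells. Single Ghrl-led cells were uneven, with 1 to 61 Sox4 UMIs. The deepest of them, in library 4, held 74398 UMIs, with 16 of Ghrl and 39 of Sox4, and weighs most in the levels of this group. Neurog3 was found in 6 of the 8 Ghrl-led cells, at 170 CPM, but 19 of its 30 UMIs lay in 1 cell of library 3. It had 0 UMIs in the Gip-, Cck-, Gcg-, Nts- and Sst-led cells. It was not particular to the members, as enterochromaffin cells held it at 136, 149, 111 and 107 CPM in libraries 1 to 4. Mboat4, the acyltransferase that activates ghrelin, was at 198 CPM in Ghrl-led, 64.5 in Sst-led and 53.7 in Cck-led cells. Their Chgb level of 322 CPM was the lowest and their Chga level of 1001 CPM the second highest of the 6 groups.

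Receptors and sensors also differed by group. Ffar1, a receptor of long-chain fatty acids, was at 455 CPM in Nts-led, 423 in Gcg-led, 152 in Cck-led and 126 in Gip-led cells. It had 0 UMIs in Sst-led cells, as did Gpr119, a receptor of lipid amides, which reached 159 CPM in Gcg-led cells. Galr1 and Sstr5, receptors of galanin and somatostatin, likewise had 0 UMIs in the Sst-led cells. Ffar2, a receptor of short-chain fatty acids, was highest in Ghrl-led cells, at 243 CPM, and lowest in Gip-led cells, at 3.37 CPM.

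Cnr1 and Glp1r were each found mainly in 1 group. The cannabinoid receptor Cnr1 was at 257 CPM and in 48 of 51 Gip-led cells, and between 0 and 27.0 CPM in the other groups. Glp1r, the receptor of glucagon-like peptide 1, was at 292 CPM and in 16 of 21 Sst-led cells, and at most 2.99 CPM in the other groups. After thinning, 38 of 48 Gip-led cells held Cnr1 and 13 of 21 Sst-led cells held Glp1r. In the epithelial background, which is deeper, 0.211% of cells held Cnr1 and 0.132% held Glp1r. Asic5, a channel known to respond to bile acids, was at 1951 CPM in Sst-led cells and 70.8 CPM in Gip-led cells.

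By the size of the ratio to all other members, the leading genes of Gip-led cells after Gip were Pkib, Cnr1, Fabp5, Sphkap, Scarb1, Cd44 and Gatm. Fabp5 binds fatty acids in the cytoplasm. It was at 9521, 15106, 5033 and 10467 CPM in the Gip-led cells of libraries 1 to 4, against 1786, 649, 697 and 647 CPM in the other hormone-led cells. The Gip-led cells were higher in each library. Scarb1, a lipoprotein receptor, was at 182 CPM against 18.6 CPM in the other hormone-led cells, and Pkib, an inhibitor of protein kinase A, at 247 against 6.43 CPM. In Sst-led cells the genes after Sst were Iapp, Asic5, Hhex, Glp1r, Serpina1a, Kcnk2 and Col27a1. Iapp was at 10703, 13484, 9977 and 6345 CPM in the Sst-led cells of libraries 1 to 4 and at most 86.6 CPM in other hormone-led cells of a library. Kcnk2, a potassium channel, was at 187 CPM in Sst-led cells and had 0 UMIs in all other members.

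**Figure D4:**
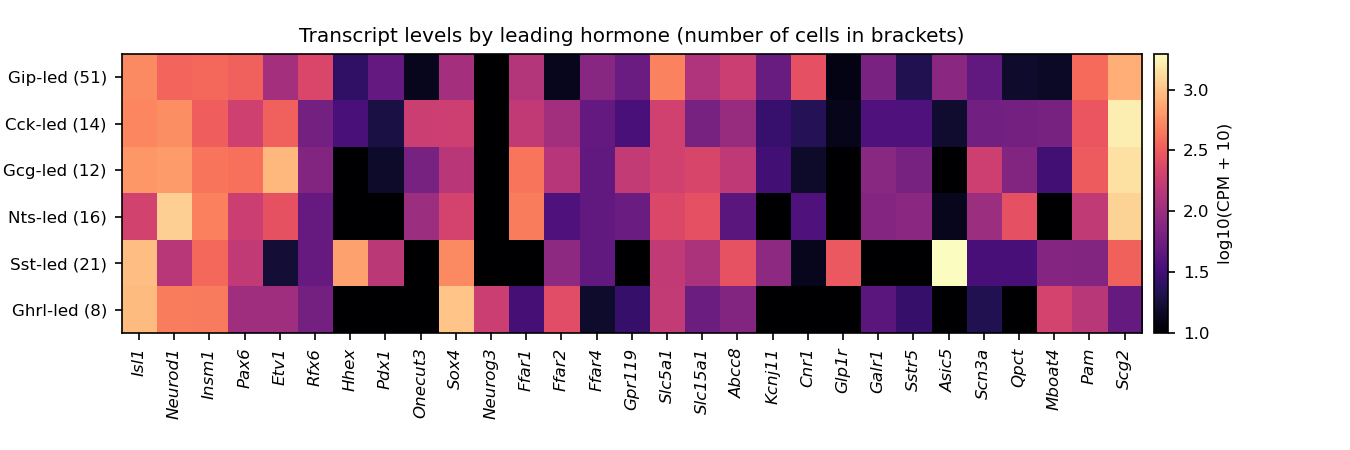
Colour shows log10 of CPM plus 10 for a set of genes (columns) in cells led by 6 hormones (rows, with the number of cells), UMIs summed over the 4 libraries. Hhex, Glp1r and Asic5 are brightest in Sst-led cells, Cnr1 and Rfx6 in Gip-led cells, Etv1 in Gcg-led cells and Sox4 and Neurog3 in Ghrl-led cells.

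Peptide processing genes were measured in all groups. Cpe, which trims prohormones after cleavage, was at 1350, 611, 1043 and 1207 CPM in the members of libraries 1 to 4, and the prohormone convertase Pcsk1 at 244, 127, 196 and 253 CPM. Both were lowest in library 2. In hormone-led cells Cpe was at 1913, 1222, 1444 and 1407 CPM and Pcsk1 at 346, 247, 252 and 280 CPM, so for Pcsk1 libraries 2 and 3 lay close together. Pcsk2, the other convertase, was at 0 to 8.73 CPM. Qpct, which forms the pyroglutamate end of neurotensin, was at 256 CPM in Nts-led cells and 0 to 63.4 CPM in the other 5 groups. Syt7, a calcium sensor of exocytosis, was also highest in Nts-led cells, at 384 CPM.

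The Tph1-low chromogranin cells were set against the enterochromaffin cells of the same library. A gene was called where the log2 ratio of CPM, with 10 CPM added to both, was past 2-fold in the same direction in 4 of 4 libraries. This is a description with no test, and the libraries are not replicates of a group. It called 35 genes higher, or 0.213% of 16449 genes measured, and 73 lower, or 0.444%. Of the 8983 genes with at least 10 CPM in the higher class these are 0.39% and 0.813%. Over genes of at least 10 CPM the median log2 ratio was -0.06. In hormone-led cells 67 genes were higher (0.413% of 16210) and 67 lower (0.413%), and 28 of the higher and 55 of the lower genes were the same as over all members, which is 80% and 75.3% of the first lists and 41.8% and 82.1% of the second. Without library 2, 78 genes were higher and 98 lower over all members, by a rule then needing 3 of 3 libraries.

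Of 15 hormone genes, 6 were called higher (Gip, Sst, Ghrl, Gcg, Pyy and Iapp) and 2 lower (Tac1 and Ucn3). Gip was at 7.70, 0, 36.7 and 7.67 CPM in enterochromaffin cells and Sst at 0, 0, 3.55 and 0 CPM, against the member levels given above. The groups were far apart in each library. Tac1, made in enterochromaffin cells, was at 34.9, 86.3, 51.4 and 33.0 CPM in members and 2124, 3886, 2059 and 3440 CPM in enterochromaffin cells. Cck, Sct and Nts were not called. In enterochromaffin cells Sct was at 44237, 5647, 15983 and 5004 CPM, and Cck at 15685, 609, 8323 and 69.0 CPM, so the order of the classes changed between libraries.

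Of 22 endocrine transcription factors, 4 were higher, with Isl1, Etv1 and Hhex among them, and 2 lower (Lmx1a and Mnx1). Isl1 was at 466, 275, 388 and 451 CPM in members and 7.70, 0, 9.47 and 7.67 CPM in enterochromaffin cells, with log2 ratios of 4.35 to 4.83. Hhex had 0 UMIs in enterochromaffin cells, where 3 counts would be 3.55 to 12.4 CPM, and 108, 23.3, 58.2 and 92.7 CPM in members. Lmx1a, a factor of serotonin cells, was at 0 to 2.27 CPM in members and 58.0 to 172 CPM in enterochromaffin cells. Neurod1, Insm1 and Pax6 were not called, with log2 ratios of -0.94 to 0.44, -0.49 to 0.35 and -0.01 to 2.07.

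Granule genes were mixed. Of 12 granins and granule proteins, Scgn was higher and Chga, Chgb and Slc18a1 lower. Secretagogin (Scgn), a calcium-binding protein, was at 173, 190, 217 and 266 CPM in members and 10.3, 37.3, 8.29 and 0 CPM in enterochromaffin cells. The rule itself used Chga and Chgb in both classes. Chgb was at 2146, 1713, 2499 and 5788 CPM in members and 18874 to 25389 CPM in enterochromaffin cells. Scg2 was not called, although it was called higher in hormone-led cells. Of 16 exocytosis genes 0 were higher and 2 lower, Snap25 and Rab3c. Rab3c, a small GTPase of granules, was at 2.49, 2.74, 8.32 and 28.8 CPM against 226, 435, 232 and 284 CPM. Of 12 processing genes 1, Mboat4, was higher, and Cpe joined it in hormone-led cells.

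Of 20 nutrient and bile acid sensors, 2 were higher and 1 lower. Ffar1 was at 133, 69.9, 132 and 159 CPM in members and 0 to 30.8 CPM in enterochromaffin cells. Abcc8, a subunit of the ATP-sensitive potassium channel, was at 133, 35.6, 105 and 96.8 CPM against 0 to 8.29 CPM. Trpa1, the irritant channel of enterochromaffin cells, was at 0 to 12.4 CPM against 71.0 to 191 CPM. Gpr119 and Kcnj11, the partner of Abcc8, passed the rule in hormone-led cells only, with no test of that difference. Gpr142, Gprc6a, Tas1r3 and Piezo2 had 0 UMIs in members, where 3 counts would be 2.27 to 6.18 CPM in a library. Of 18 receptors Cnr1 alone was higher and 0 were lower, and of 12 excitability genes Asic5 was higher and Scn3a lower.

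Other genes named by size were Fabp5, Rgs4, Cd74 and Reg3g on the higher side and Reg4, Amigo2, Afp, Dusp2, Fmo2 and Tpbg on the lower side. Reg4 was at 2.49, 11.0, 48.4 and 284 CPM in members and 2635, 3430, 4904 and 4951 CPM in enterochromaffin cells. Fmo2 had 0 UMIs in members and 37.9 to 76.7 CPM in enterochromaffin cells. Cd74 and Reg3g did not keep the call in hormone-led cells, where the smallest log2 ratios were 0.01 and -3.66. Both genes are expressed by other epithelial cells, at up to 450 CPM and 4829 CPM in a library. Enterochromaffin cells of library 3 held the Paneth cell transcript Defa24 at 36138 CPM, against 209 CPM in its members and 71.8 to 196 CPM in enterochromaffin cells of the other libraries. Defa24 belongs to a family of similar sequences and its count is uncertain. Without library 3, 91 genes were lower, by a rule then needing 3 of 3 libraries.

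**Figure D5:**
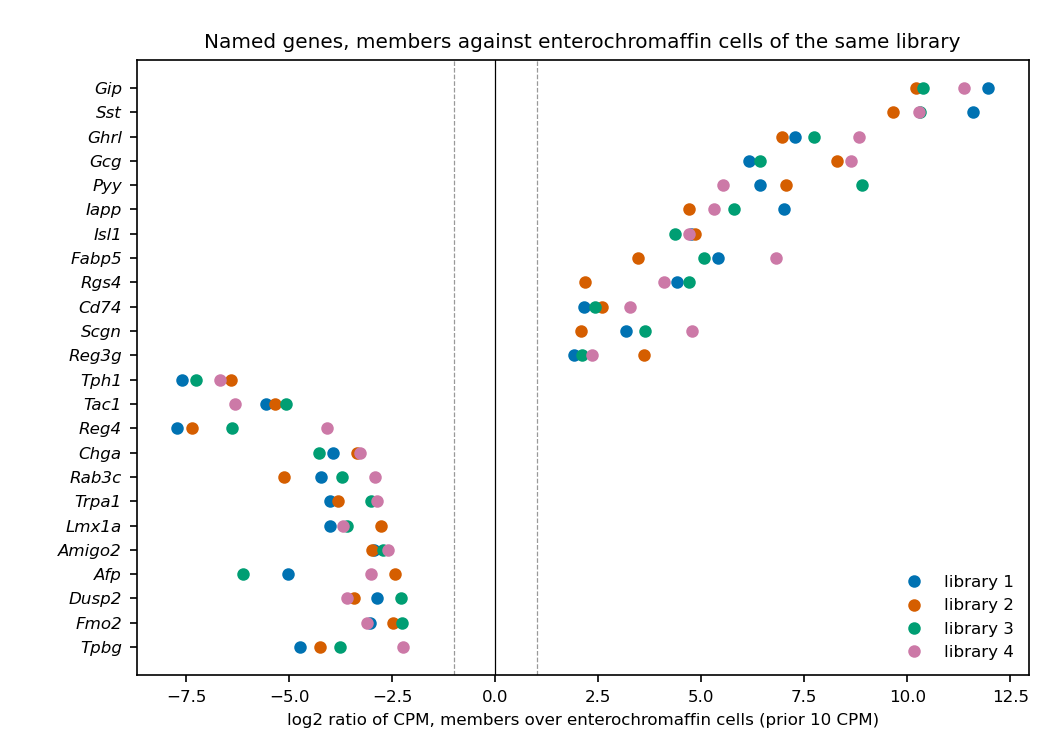
Log2 ratio of CPM, Tph1-low chromogranin cells over enterochromaffin cells of the same library, with 10 CPM added to both, for the 24 named genes. Each point is 1 library, and dashed lines mark 2-fold; all 4 points of each gene lie on 1 side of them, by the rule that chose the genes, which for Chga and Tph1 includes the choice of cells.

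A fixed list of indole and xenobiotic receptors and targets was read because the study fed an indole. Of its 11 genes 0 were higher and 0 lower than in enterochromaffin cells, against 0.213% and 0.444% of all genes measured. A list of 11 genes cannot tell 0 from such shares, and only 7 of them had a median of at least 10 CPM over the libraries. Ahr, the aryl hydrocarbon receptor, was at 4.99, 2.74, 10.6 and 2.06 CPM in the members of libraries 1 to 4, values of few UMIs each. Nr1i2, the pregnane X receptor, was at 28.7, 28.8, 24.9 and 22.7 CPM, and Vdr, the vitamin D receptor, at 79.8, 130, 105 and 94.8 CPM. Cyp1a1, a target of Ahr, had UMIs in library 2 alone, at 2.74 CPM, and Ahrr and Cyp1b1 had 0 UMIs. A level of 3 UMIs in a library is 2.27 to 6.18 CPM, and several of these values lie below it.

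Between libraries, the highest and the lowest were at least 2-fold apart, with 10 CPM added to both, in 186 of 1409 genes with a median of at least 100 CPM over the libraries, or 13.2%. Without library 2 it was 51 genes, and without library 4 it was 121. Reg3b was at 11980, 32761, 1821 and 152 CPM and Reg3g at 4770, 11363, 551 and 196 CPM, highest in library 2. In hormone-led cells Reg3g was at 90.1, 986, 162 and 81.2 CPM. Reg3b there was at 263, 4926, 659 and 78.7 CPM, and 1 cell held 78.0% of its UMIs in library 2 and 88.7% in library 3. The epithelial background held Reg3b at 8617, 18668, 911 and 1306 CPM. The bile acid binding protein Fabp6 was at 1787, 4428, 1280 and 119 CPM, and in hormone-led cells at 35.3, 22.0, 712 and 14.8 CPM, where 1 cell held 95.4% of the UMIs of library 3.

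The class II genes H2-Aa, H2-Ab1 and Cd74, the goblet gene Agr2, Pyy and Vim were also among the 10 widest. Cd74 was at 678, 1452, 361 and 86.5 CPM, lowest in library 4, where 1 cell held 95.2% of its UMIs. In hormone-led cells it was at 189, 233, 403 and 103 CPM, highest in library 3. Asic5 was at 418, 16.4, 191 and 84.5 CPM, and Sst-led cells were 16.2%, 6.25%, 15.6% and 9.68% of the members. Libraries 1 and 3 thus had similar Sst-led shares but unlike Asic5 levels. In library 2, 3 cells held Asic5, and 1 of them held 58.3% of its UMIs. The part of the Sst-led share in these levels was not tested. In Sst-led cells alone Asic5 was at 3402, 439, 1500 and 955 CPM. Among hormone-led cells 209 of 1402 genes (14.9%) were past 2-fold, and Reg3b, Asic5, Reg3g and Agr2 were again among the 10 widest. With them were 2210407C18Rik, Rgs2, Fabp2, Cd177, Olfm4 and Reg3a, and 1 cell held over 90% of the Olfm4 UMIs in libraries 1, 3 and 4.

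Transcripts of other cell types were measured in the members for comparison. T cell markers summed to 0 to 6.80 CPM, with Cd3d, Cd3e and Cd3g at 0 by the rule, and 4 of 6 stromal and glial markers, Col1a1, Col1a2, Dcn and S100b, were at 0. Tuft markers summed to 0, 2.74, 101 and 8.24 CPM. Enterocyte markers summed to 27408, 35758, 26826 and 29651 CPM in members, 6542, 12237, 25757 and 22775 CPM in hormone-led cells and 89856 to 124638 CPM in the epithelial background. T cell barcodes of libraries 1 and 3, which should lack them, held 30774 and 35902 CPM. In such sums the deepest barcodes weigh most. The median T cell barcode of these libraries held 0.542% and 0.851% of its UMIs in enterocyte markers, and the median member 0.583%. Goblet markers summed to 681 to 1743 CPM and Paneth markers to 115 to 368 CPM. The part of such transcripts in the values above was not tested.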

How the data were processed

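Single cells of 4 samples were assayed by 3′ v2 droplet sequencing, per the labels' protocols. The authors deposited 1 matrix of raw UMI counts, which are whole numbers for each gene in each barcode. The submitters' processing notes list Cell Ranger 6.1.1 and mm10 but no role for either. The annotation used and any barcode filter were not given in the sources used here. The matrix held 44277 barcodes of 4 libraries, with 183971338, 209357877, 178052389 and 173564399 UMIs. Because no source ties libraries to samples, samples were grouped only to describe the design.

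For each class of cells in a library, a gene's summed UMIs were expressed as CPM of that class. Exact Poisson intervals belong to CPM and Clopper-Pearson intervals to shares (scipy 1.17.1). Doublets were scored with Scrublet in scanpy 1.11.5 and kept. Genes named in comparisons were the members of the gene lists, the 12 genes per direction with the largest smallest ratio to enterochromaffin cells among genes with a median of at least 50 CPM in the higher class, the 10 widest between libraries, and the 8 genes with the highest ratio in groups of at least 20 cells led by 1 hormone (at least 100 CPM there, in at least 20% of its cells). The 20 lists held 208 gene entries, all found by symbol; 1 of these genes is not reported here. The members and lists were chosen with earlier results of these data known. The comparison with enterochromaffin cells was tested on simulated counts of these classes. Promoter sequences come from RefSeq (GRCm38.p6) and gene positions from GENCODE on GRCm38. Alternatives to the filters, limits, priors and denominators were tried.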

Additional observations from a re-analysis of the deposited data

How the results depend on the processing

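The number of members was 164, and 383 with at least 5 Chga and Chgb UMIs. The share with a leading hormone was 34.7% with at least 5 UMIs, 92.2% with at least 20 and 86.1% with at least 1 Chgb UMI; leaving out each library in turn gave 74.0 to 81.1%. Genes higher than in enterochromaffin cells numbered 35, and 74 with at least 5 UMIs, 60 with at least 20, 53 with Tph1 under 10 UMIs, 197 with a prior of 1 CPM, 12 with a prior of 50 CPM, 11 at 4-fold, 53 with at least 1 Chgb UMI and 67 in hormone-led cells. Lower genes numbered 73, and 185 with at least 5 UMIs, 152 and 23 with priors of 1 and 50 CPM, and 19 at 4-fold. Leaving out a library gave 43 to 78 higher and 85 to 108 lower genes, and 51 to 179 genes past 2-fold between libraries. Restricting members to cells with Chgb or a leading hormone, and leaving out libraries in the between-library count and the share with a leading hormone, were chosen after seeing the data. Of 456 values of the 24 named genes under alternatives, 12 no longer passed in 4 of 4 libraries: those of Reg3g, Cd74, Rgs4, Scgn, Dusp2 and Fmo2. The median log2 ratio of none of the 24 genes changed sign under the alternatives run, although Reg3g in hormone-led cells was lower in library 1 (log2 ratio -3.66). Of 416 hormone levels under alternatives, 334 left the counting interval of the value given, as those intervals are narrow. Of the shares led by 1 hormone, 6 of 102 left their interval, all with another Chga and Chgb limit.

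No paired analysis was possible because no source ties a library to a labelled sample. For the same reason the planned diet comparisons, with their tools, replicate block and left-out replicates, were not run. The depth of 15 to 43 enterochromaffin and 31 to 64 member cells per library limits all values, and groups led by Pyy or Ghrl hold too few cells to describe by library.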
